A study of Homo sapiens with 12 samples.

Results

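Lipid droplets are the organelles in which adrenocortical cells keep cholesterol as esters, a store from which steroid hormones can be made. Cholesterol is esterified by SOAT1 in the endoplasmic reticulum, triglycerides are completed there by DGAT1 and DGAT2, and seipin, the product of BSCL2, helps droplets to form. Perilipins (PLIN genes) coat the droplet and control access of lipases. The stored esters are hydrolysed by hormone-sensitive lipase (LIPE) and triglycerides by ATGL (PNPLA2), which is inhibited by the product of HILPDA.

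The 10 genes described here are SOAT1, DGAT1, DGAT2, LIPE, PNPLA2, HILPDA, PLIN2, PLIN3, PLIN4 and BSCL2. They were listed by symbol, for their known roles, and each was found 1 time among the 60662 genes of the deposited table. The table gives TPM, the share of each gene among all transcripts of a library after correction for length, so levels can be compared between genes. RNA-seq was performed on NCI-H295R, a line derived from a human adrenocortical carcinoma. The 3 groups differed in what was added for the last 24 h, after a 12 h period of serum withdrawal at confluence. It was the solvent alone (VEH, 0.1% DMSO), 30 µM of CJ28, a cortisol synthesis inhibitor known by this code name, or the same dose of metyrapone (MET), an inhibitor of the enzyme encoded by CYP11B1. Each group had 4 samples of this single line, and as the labels do not say that they came from separate cultures, p-values measure the spread between these samples, which may be technical. The comparisons ask how each cortisol synthesis inhibitor altered gene expression relative to VEH, and how the inhibitors differ at the same dose and time.

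The line's label was checked against adrenocortical markers. Of 8 such genes, 5 (NR5A1, STAR, CYP11A1, CYP17A1 and CYP21A2) had a mean of 1 TPM or more over all samples, HSD3B2 and MC2R stayed lower, and CYP11B1 did not exceed 0.05 TPM in any sample. Their summed level was 270.5 to 281.2 TPM in VEH, 269.5 to 284.1 in MET and 108.7 to 116.3 in CJ28. This moved with the changes in CJ28 described below, and its part in them was not tested. In bulk RNA, fewer cells of a type and less RNA per cell cannot be told apart. The 5 adipocyte markers summed to 0.21 TPM or less, and ADIPOQ was listed at 0 throughout. Summed endothelial, leukocyte, medullary and fibroblast markers did not exceed 1.17 TPM in any sample, with the fibroblast sum at 0.10 to 0.61 TPM in CJ28 and 0.52 to 1.15 in VEH. The medullary sum was also lower in CJ28 (0.48 to 0.64 TPM) than in VEH (0.66 to 0.95 TPM), mostly through CHGA, which fell (log2 fold change -0.51, adjusted p = 0.0277 in limma), while TH was listed at 0 throughout. The part of these low levels in the results was not tested. Nuclear protein-coding genes held 21.28% to 21.35% of TPM in CJ28, against 24.32% to 24.79% in VEH and 24.08% to 24.62% in MET. A gene whose transcripts kept pace with other mRNAs therefore had lower TPM in CJ28. For this reason the changes below are also given after dividing each sample by its median ratio to all samples (median-of-ratios scaling) and after rescaling TPM to nuclear protein-coding genes alone. Over all tested genes, CJ28 against VEH had a median log2 fold change of -0.13 as deposited, 0.02 after the first and 0.09 after the second. TPM does not carry read numbers, so the reads behind each value are not given here.

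In VEH, SOAT1 had the highest level of the 10 genes, with 95.3 ± 2.41 TPM (SD, n = 4 here and below), and ranked 381st of 19944 nuclear protein-coding genes. It alone held 61.6% to 62.7% of the summed TPM of the 10 genes in VEH samples. PLIN3 followed with 19.4 ± 1.78 TPM, then BSCL2 with 13.4 ± 1.02 and LIPE with 11.4 ± 1.09, which overlapped each other. HILPDA (5.25 ± 0.917 TPM) and PNPLA2 (4.46 ± 0.785 TPM) also overlapped each other. The triglyceride-forming enzymes were lower, DGAT1 at 2.84 ± 0.25 TPM and DGAT2 at 0.805 ± 0.11 TPM, and their samples were separate. PLIN2 and PLIN4 came last, at 0.173 ± 0.033 and 0.13 ± 0.0271 TPM, and overlapped. By the listed TPM, perilipin transcript was thus almost entirely PLIN3. The other perilipin genes, PLIN1 and PLIN5, did not exceed 0.11 and 0.38 TPM in any of the 12 samples. How far the quantification shaped these low values was not tested. SOAT2, the paralog of SOAT1, was listed at 0 in all samples. In CJ28 the order of the first 4 changed to SOAT1, BSCL2, PLIN3 and LIPE, with BSCL2 and PLIN3 overlapping, while in MET the first 4 kept the order of VEH.

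**Figure D1:**
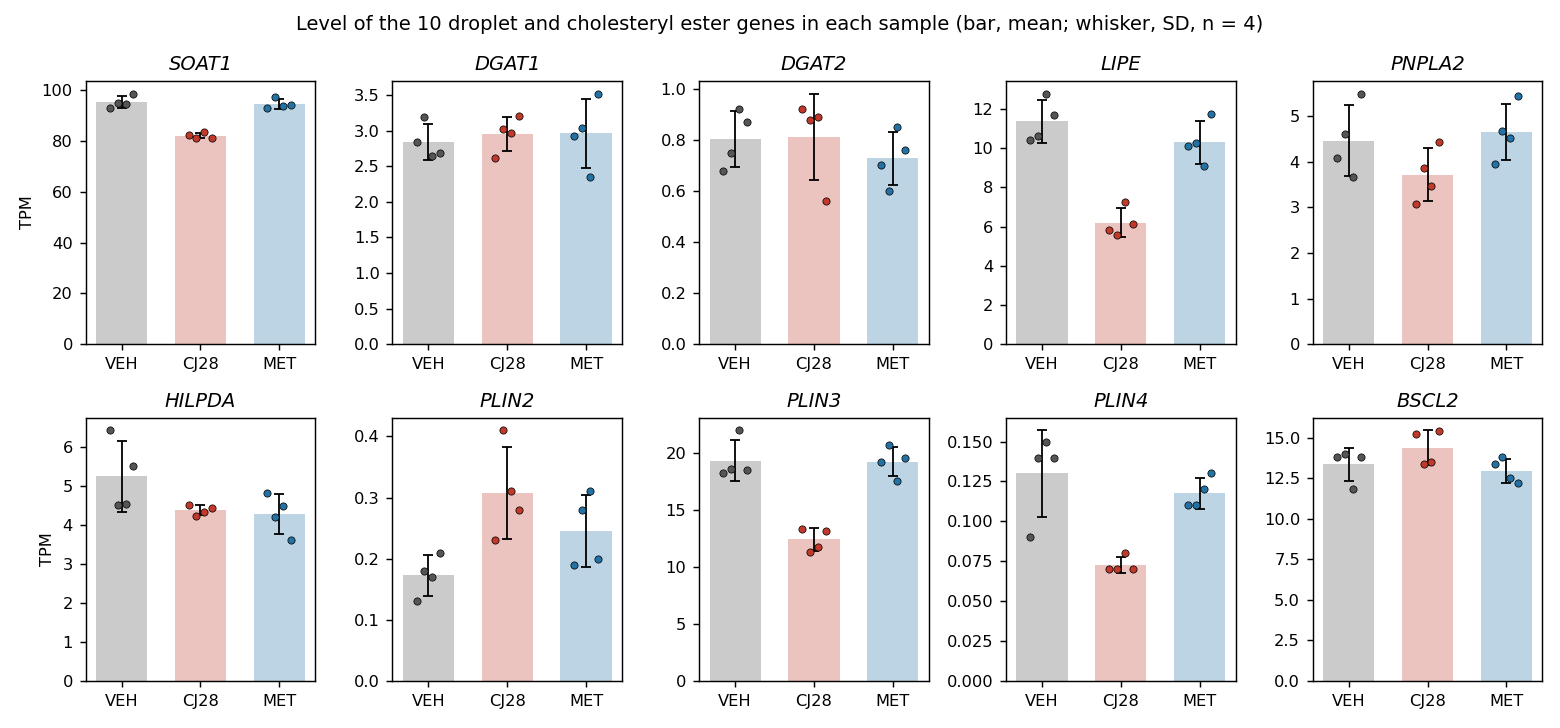
TPM (vertical axes, each from 0) of the 10 genes in the VEH, CJ28 and MET samples, with points for samples, bars for means and whiskers for SD (n = 4). SOAT1, LIPE, PLIN3 and PLIN4 points of CJ28 lie below all VEH points, PLIN2 points of CJ28 lie above them, and the other 5 genes overlap.

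The windows upstream of the transcription starts of SOAT1, PLIN3 and LIPE are shown because these 3 genes passed the test in CJ28, and that of PNPLA2 because it holds a motif found in few genes. Each is the 250 bases before a RefSeq start (GRCh38.p14), 5′ to 3′ on the gene's strand. Capitals mark CCAAT on either strand (read as ATTGG on the other), the core letters recognised by the factor NF-Y, and in PNPLA2 the letters TCACCCCAC, a sterol regulatory element, here on the opposite strand. LIPE has 2 RefSeq starts, and gene-level values cannot tell their transcripts apart.
SOAT1, chr1:179293547-179293796, plus strand: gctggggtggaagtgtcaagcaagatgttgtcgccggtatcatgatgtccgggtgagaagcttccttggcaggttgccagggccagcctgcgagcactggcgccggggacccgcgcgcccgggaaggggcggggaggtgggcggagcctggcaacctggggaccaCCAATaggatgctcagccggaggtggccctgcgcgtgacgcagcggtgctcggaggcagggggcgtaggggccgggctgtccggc
PLIN3, chr19:4867668-4867917, minus strand: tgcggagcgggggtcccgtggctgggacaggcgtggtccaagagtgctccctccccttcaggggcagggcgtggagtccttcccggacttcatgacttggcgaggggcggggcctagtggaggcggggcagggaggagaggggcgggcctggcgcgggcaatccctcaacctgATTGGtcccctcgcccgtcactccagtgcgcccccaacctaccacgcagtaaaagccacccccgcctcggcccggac
LIPE, outer start, chr19:42427389-42427638, minus strand: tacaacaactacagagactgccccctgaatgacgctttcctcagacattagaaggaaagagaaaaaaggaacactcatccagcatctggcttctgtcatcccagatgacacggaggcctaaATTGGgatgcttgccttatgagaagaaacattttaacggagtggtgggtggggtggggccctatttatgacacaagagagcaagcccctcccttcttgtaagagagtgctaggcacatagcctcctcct
LIPE, inner start, chr19:42423586-42423835, minus strand: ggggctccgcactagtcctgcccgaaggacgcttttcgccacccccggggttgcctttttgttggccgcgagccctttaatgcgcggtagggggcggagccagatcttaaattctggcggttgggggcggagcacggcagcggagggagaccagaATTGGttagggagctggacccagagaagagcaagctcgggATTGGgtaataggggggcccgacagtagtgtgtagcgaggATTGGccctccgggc
PNPLA2, chr11:818664-818913, plus strand: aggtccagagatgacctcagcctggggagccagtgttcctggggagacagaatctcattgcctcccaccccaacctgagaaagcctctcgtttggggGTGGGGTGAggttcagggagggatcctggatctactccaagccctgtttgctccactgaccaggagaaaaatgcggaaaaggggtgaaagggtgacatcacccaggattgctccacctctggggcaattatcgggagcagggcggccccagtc

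CCAAT was present 85 bases before the start of SOAT1, 77 before that of PLIN3 and 129 before the outer start of LIPE, and 3 times before the inner start of LIPE, at 95, 55 and 15 bases. Of all 35116 RefSeq windows of this length, 32% held it, and 5 of the 10 windows of the 7 matched genes did. TCACCCCAC began 153 bases before the start of PNPLA2 and occurred in 0.362% of all windows and in 1 of the 10. Also searched, on both strands, were GGGCGG (7 of 10 windows, 42.6% of all), GCGTG, the core bound by the aryl hydrocarbon receptor (4 of 10, 32.2% of all), and CACGTG (1 of 10, in PLIN2, 6.34% of all). None of the 10 windows held CAAGGTCA, a site for NR5A1 (1.14% of all), TGACGTCA (1.65%), TGATGNAAT (0.888%) or the PPAR response element in its strict AGGTCA repeat form with a 1-base spacer (0.0171%). In these 10 windows matches of different motifs did not overlap. GGGCGG matches that began 86 and 81 bases before a start of BSCL2 shared a letter. A match is a description of letters only.

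Relative to VEH, CJ28 lowered the ester lipase LIPE and the coat gene PLIN3 most clearly, SOAT1 slightly, and left the triglyceride enzymes DGAT1 and DGAT2 within the spread between samples. The fit held 8 of the 10 genes, because PLIN2 and PLIN4 lay under the minimum level of 0.5 TPM in 4 samples. Of these 8, 3 fell, 0 rose and 5 did not pass an adjusted p of 0.05 in limma on log2(TPM + 0.1). In the same fit 57% of all 16815 tested genes were called, 19.9% being higher and 37.1% lower, so a share of 37.5% lower among the 8 is close to that of all genes. With either other scaling 3 of the 8 were called, 1 higher (BSCL2) and 2 lower (LIPE and PLIN3). Of all tested genes, 55.9% were called with median-of-ratios factors and 65.7% on nuclear protein-coding TPM. The lower share of all calls went from 65.1% as deposited to 47.1% and 39.9% under these scalings. As deposited, the median log2 fold change of the 8 genes was -0.23, beside -0.13 for all tested genes.

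LIPE, on chromosome 19 (42401514 to 42427388 on GRCh38, as are all positions here), removes acyl groups from cholesteryl esters and diglycerides. It had 10.39, 10.64, 12.78 and 11.70 TPM in VEH and 5.83, 5.59, 7.26 and 6.13 TPM in CJ28. All CJ28 samples lay below all VEH samples, and mean TPM fell by 45.5%. The log2 fold change was -0.87 (standard error 0.097, adjusted p = 8.22e-06 in limma). It was -0.72 after median-of-ratios scaling and -0.66 on nuclear protein-coding TPM, and passed the test in each. LIPE lies wholly within its antisense gene LIPE-AS1, which fell too, from 4.71 ± 0.246 TPM in VEH to 3.52 ± 0.261 in CJ28. Libraries were stranded, but the sources used here do not give the strand setting of the quantification. The 2 genes summed gave a log2 fold change of -0.72 (adjusted p = 1.72e-06 in limma).

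PLIN3 (chromosome 19, 4838341 to 4867694) encodes a perilipin that moves from the cytosol onto nascent droplets. Its VEH samples had 18.25, 18.65, 22.03 and 18.53 TPM, and its CJ28 samples 13.39, 11.35, 11.81 and 13.21 TPM. The groups did not overlap, and mean TPM fell by 35.8%. The log2 fold change was -0.63 (standard error 0.075, adjusted p = 1.35e-05 in limma), with -0.48 after median-of-ratios scaling and -0.43 on nuclear protein-coding TPM, again past the test. Without VEH replicate 3, which lay highest, it was -0.57.

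SOAT1 (chromosome 1, 179293714 to 179358680) makes the cholesteryl esters of the adrenal cortex. It was at 92.94, 95.08, 94.44 and 98.62 TPM in VEH and at 82.51, 81.32, 83.32 and 81.13 TPM in CJ28. The samples of the groups were again separate, and mean TPM fell by 13.9%, the smallest of the 3 decreases. SOAT1 was also the gene with the least spread, with a coefficient of variation of 2.53% in VEH and 1.26% in CJ28. The log2 fold change was -0.21 (standard error 0.027, adjusted p = 2.3e-05 in limma). This call rested on the scaling, as the log2 fold change was -0.06 (adjusted p = 0.0944 in limma) after median-of-ratios scaling and -0.01 (adjusted p = 0.764) on nuclear protein-coding TPM. SOAT1 thus fell as a share of all transcripts, and a decrease relative to other mRNAs was not detected.

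BSCL2 (chromosome 11, 62690275 to 62709845) went the other way with scaling. It had 13.81, 14.00, 11.85 and 13.81 TPM in VEH and 15.22, 13.39, 13.54 and 15.42 TPM in CJ28, with overlapping groups. The log2 fold change of 0.11 (95% interval -0.04 to 0.25) did not pass the test (adjusted p = 0.206 in limma). After median-of-ratios scaling it was 0.26 (adjusted p = 0.00289 in limma) and on nuclear protein-coding TPM 0.31 (adjusted p = 7.04e-04). All of BSCL2 lies within the readthrough gene HNRNPUL2-BSCL2, between which and BSCL2 the quantification could have divided reads. That gene had 6.68 ± 0.712 TPM in VEH and 6.65 ± 1.06 in CJ28, and the sum of both gave a log2 fold change of 0.07 (adjusted p = 0.404 in limma). GNG3, which overlaps part of BSCL2 on the opposite strand, did not exceed 0.51 TPM in any sample.

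The triglyceride lipase gene PNPLA2 (chromosome 11, 818914 to 825573) had 4.08, 4.6, 3.67 and 5.49 TPM in VEH and 3.08, 3.85, 3.46 and 4.44 in CJ28. Its groups overlapped, with a log2 fold change of -0.26 (95% interval -0.56 to 0.05, adjusted p = 0.135 in limma). HILPDA (chromosome 7, 128455849 to 128458418), the hypoxia-induced inhibitor of that lipase, had 6.44, 4.51, 4.55 and 5.51 TPM in VEH and 4.53, 4.25, 4.35 and 4.43 in CJ28. The CJ28 values were closely grouped and overlapped with VEH through its lowest sample (log2 fold change -0.24, 95% interval -0.48 to 0.01, adjusted p = 0.0895 in limma). Without VEH replicate 2 or VEH replicate 3 the log2 fold change of HILPDA was -0.31 or -0.30 and passed the test (adjusted p = 0.043 and 0.0472 in limma). Without VEH replicate 1, the highest sample, it shrank to -0.14, and without VEH replicate 4 to -0.21. Neither of these passed (adjusted p = 0.263 and 0.18 in limma), so the call depended on which VEH samples were kept. On nuclear protein-coding TPM the values of PNPLA2 and HILPDA were nearer to 0, at -0.06 and -0.04.

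DGAT1 (chromosome 8, 144314584 to 144326910) and DGAT2 (chromosome 11, 75759512 to 75801535) encode unrelated proteins with the same activity, adding the last acyl chain to diglyceride. DGAT1 ranged from 2.64 to 3.19 TPM in VEH and from 2.62 to 3.20 in CJ28. DGAT2 ranged from 0.68 to 0.92 TPM in VEH and from 0.56 to 0.92 in CJ28. The groups overlapped in each gene, and the lowest DGAT2 value was that of CJ28 replicate 4. The log2 fold changes were 0.06 (95% interval -0.19 to 0.30) and -0.002 (95% interval -0.37 to 0.37), with adjusted p = 0.697 and 0.994 in limma. Under the other scalings DGAT2 had 0.13 and 0.18 and DGAT1 0.20 and 0.25, without passing the test (smallest adjusted p = 0.0538 in limma).

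PLIN2 (chromosome 9, 19108375 to 19149290), which encodes the perilipin adipophilin, and PLIN4 (chromosome 19, 4502180 to 4518465) were too low for the main fit, and 2 decimals of TPM give their values few steps. PLIN2 had 0.13, 0.18, 0.17 and 0.21 TPM in VEH and 0.23, 0.41, 0.31 and 0.28 TPM in CJ28, so every CJ28 value was higher. PLIN4 had 0.09, 0.14, 0.15 and 0.14 TPM in VEH and 0.07, 0.07, 0.08 and 0.07 TPM in CJ28, so every CJ28 value was lower. Each separation gave p = 0.0286 in the two-sided exact permutation test of mean TPM, the smallest that 4 against 4 samples allow, without adjustment for the number of genes. In a limma fit of all 40973 genes above 0 TPM neither passed, with log2 fold changes of 0.57 (adjusted p = 0.0759) for PLIN2 and -0.41 (adjusted p = 0.0788) for PLIN4. Counting them, 5 of the 10 genes had CJ28 and VEH samples that did not overlap, against 24.5% of all genes above 0 TPM. Among the 8 tested genes the number was 3, against 50.3% of all tested genes. Overlap of TPM between groups, here and elsewhere, was judged on values as deposited. The other scalings raise CJ28 values relative to VEH, so decreases such as that of PLIN4 would be smaller, and overlap under them is not given here. PLIN2 and PLIN4 were in neither of the scaled fits.

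**Figure D2:**
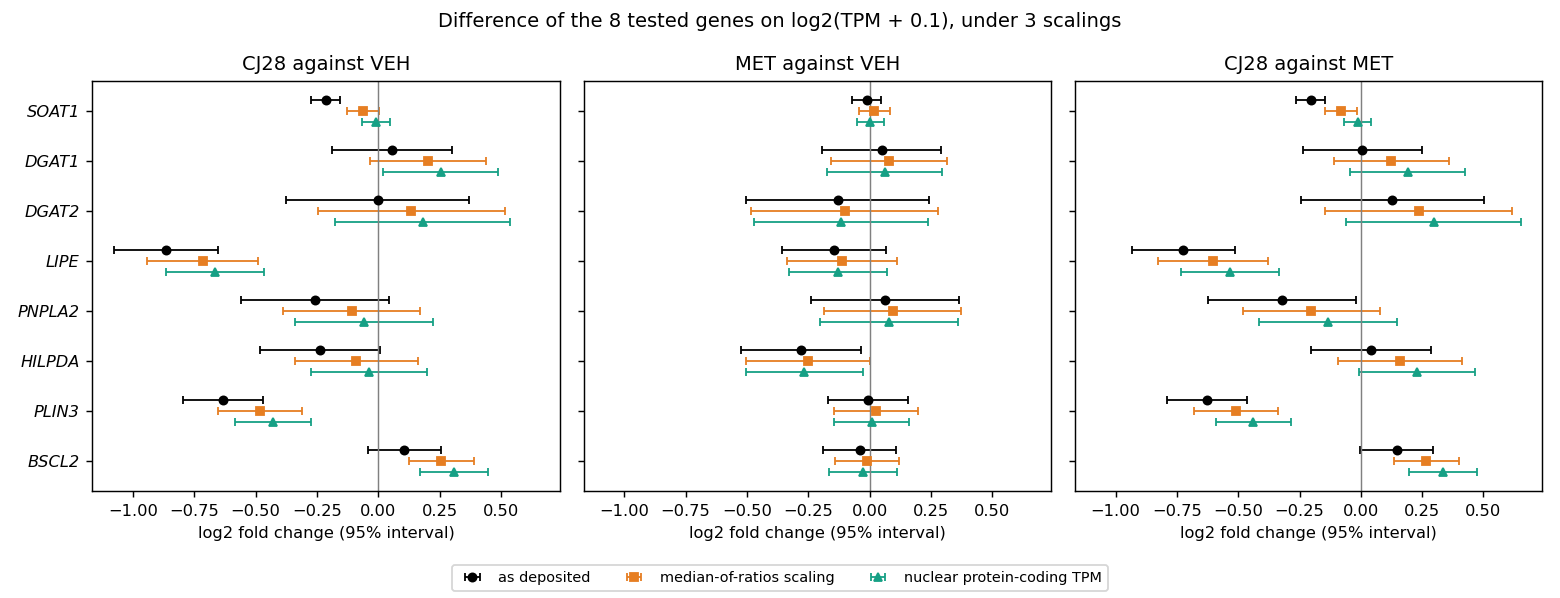
Log2 fold changes on log2(TPM + 0.1) with 95% intervals (horizontal axis) of the 8 tested genes in the 3 comparisons, for TPM as deposited (circles), after median-of-ratios scaling (squares) and on nuclear protein-coding TPM (triangles). LIPE and PLIN3 stay below 0 in CJ28 under each scaling, SOAT1 moves from -0.21 to -0.01 and BSCL2 from 0.11 to 0.31 against VEH.

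MET left the levels of these genes within the spread between samples, as far as 4 against 4 samples could show. Of the 8 genes 0 passed the test against VEH, as did 0.00595% of all tested genes, and the smallest adjusted p was 0.933 in limma. At an unadjusted limma p under 0.05 the count was 1, HILPDA. It had 4.82, 4.20, 4.49 and 3.62 TPM in MET, overlapping with VEH, and a log2 fold change of -0.28 (95% interval -0.53 to -0.04, adjusted p = 0.933 in limma). SOAT1 in MET ranged from 93.13 to 97.27 TPM, and its interval of -0.07 to 0.05 on the log2 scale was the narrowest. LIPE ranged from 9.07 to 11.76 TPM (log2 fold change -0.14, 95% interval -0.36 to 0.07) and PLIN3 from 17.55 to 20.71 TPM (log2 fold change -0.005, 95% interval -0.17 to 0.16). PNPLA2 ranged from 3.95 to 5.44 TPM, BSCL2 from 12.22 to 13.79 TPM and DGAT1 from 2.35 to 3.52 TPM. Their log2 fold changes were 0.06, -0.04 and 0.05. DGAT2, from 0.60 to 0.85 TPM, had the widest interval, -0.50 to 0.24. PLIN2 had 0.19, 0.28, 0.31 and 0.20 TPM in MET, with a mean of 0.245 TPM between those of the other groups, and overlapped with both (two-sided exact permutation test against VEH, p = 0.114). No gene of the 10 had MET and VEH samples apart, against 2.81% of all tested genes and 1.93% of all genes above 0 TPM.

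At the same dose and time, CJ28 and MET differed in LIPE, PLIN3 and SOAT1. The 3 genes were lower in CJ28 than in MET among the 8 tested, with 0 higher and 5 not passing, where 55.5% of all tested genes were called, 20.9% higher and 34.6% lower. The log2 fold changes of CJ28 against MET were -0.72 for LIPE (standard error 0.097), -0.63 for PLIN3 (standard error 0.075) and -0.20 for SOAT1 (standard error 0.027), the largest adjusted p being 4.16e-05 in limma. The CJ28 and MET samples of these 3 genes did not overlap, nor did those of 50.2% of all tested genes. On nuclear protein-coding TPM the value for SOAT1 was -0.01 (adjusted p = 0.686 in limma), whereas after median-of-ratios scaling it was -0.08 and passed (adjusted p = 0.0328). BSCL2 had a log2 fold change of 0.15 (95% interval -0.002 to 0.30, adjusted p = 0.0875 in limma), and 0.27 and 0.34 after the 2 scalings, past the test in each. For PNPLA2 it was -0.32 (95% interval -0.62 to -0.02, adjusted p = 0.0676 in limma). Without CJ28 replicate 4, MET replicate 1 or VEH replicate 4, which enters the shared spread, PNPLA2 passed with adjusted p = 0.0278, 0.0395 and 0.0453 in limma. Without any other single sample it did not pass, and over all left-out samples its log2 fold change ranged from -0.41 to -0.24. After the 2 scalings it was -0.20 and -0.13, and neither passed (adjusted p = 0.203 and 0.383 in limma). DGAT1, DGAT2 and HILPDA differed by 0.01 (95% interval -0.24 to 0.25), 0.13 (95% interval -0.24 to 0.50) and 0.04 (95% interval -0.20 to 0.29). PLIN4 samples of CJ28 also lay below those of MET, at 0.11 to 0.13 TPM, making 4 of the 10 genes without overlap, against 24.2% of all genes above 0 TPM.

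Ratios of genes within a sample do not depend on how the library is scaled, and are given as a description without a test. SOAT1 exceeded LIPE by 8.42 ± 0.731 times in VEH, 9.26 ± 0.963 in MET and 13.4 ± 1.37 in CJ28. The CJ28 range of 11.5 to 14.5 lay above those of VEH (7.39 to 8.95) and MET (8.0 to 10.3). SOAT1 transcripts thus outnumbered those of LIPE by more in every CJ28 sample. This ratio does not stand for ester hydrolysis as a whole. Of the other sterol ester hydrolases given below, NCEH1 rose in CJ28 against VEH and LIPA did not pass the test. PNPLA2 to LIPE was 0.395 ± 0.0786 in VEH and 0.604 ± 0.121 in CJ28, without overlap, and 0.452 ± 0.0448 in MET. PLIN2 to PLIN3 was 0.00896 ± 0.00192 in VEH, 0.0128 ± 0.00363 in MET and 0.0252 ± 0.00818 in CJ28, so PLIN3 stayed by far the more abundant coat transcript in all groups. PLIN2 to PLIN4 was 1.13 to 1.5 in VEH, 1.54 to 2.58 in MET and 3.29 to 5.86 in CJ28, so CJ28 lay above both other groups. The gap between VEH and MET is within the rounding of these low values to 2 decimals, and no separation is read from it. DGAT1 to DGAT2 (3.59 ± 0.722 in VEH, 3.83 ± 1.28 in CJ28) and PNPLA2 to HILPDA (0.864 ± 0.181 and 0.846 ± 0.139) overlapped between all groups.

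**Figure D3:**
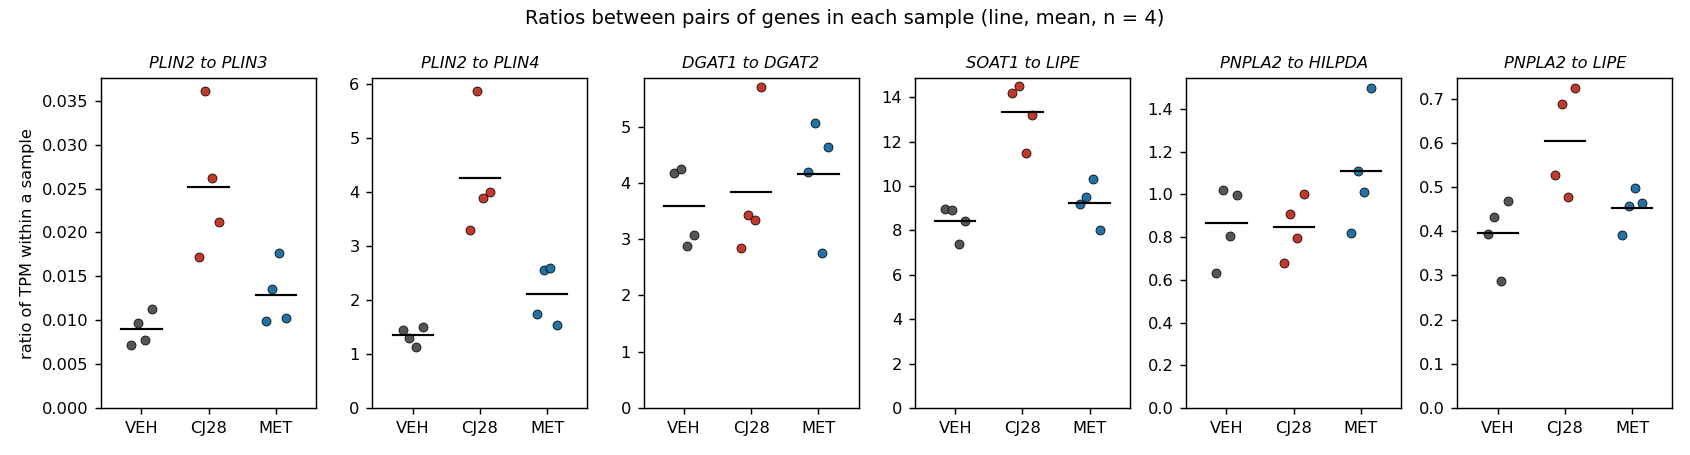
Ratio of the TPM of 2 genes within each sample (vertical axes, each from 0) for 6 pairs in VEH, CJ28 and MET, with points for samples and lines for means (n = 4). The SOAT1 to LIPE points of CJ28, 11.5 to 14.5, lie above all VEH and MET points, while DGAT1 to DGAT2 overlaps between the groups.

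Around the 10 genes, 38 other genes of droplets, sterol esters and glycerolipids were listed by role, and 27 of them were tested. The list was drawn up with earlier results of these data known, so its shares are a description and not a test. Against VEH, CJ28 changed 20 of the 27, with 6 higher, 14 lower and 7 not passing. That is 74.1% called, 22.2% higher and 51.9% lower, beside 57%, 19.9% and 37.1% of all tested genes, and their median log2 fold change was -0.16, next to -0.13 for all tested genes. By role, 1 of 3 sterol ester genes, 1 of 1 of coat and fusion, 4 of 5 of droplet assembly, 2 of 2 of triglyceride hydrolysis, 8 of 10 droplet-bound and 4 of 6 of glycerolipid synthesis were called. Scaling moved the split to 9 higher and 12 lower with median-of-ratios factors and to 9 and 11 on nuclear protein-coding TPM. Of all tested genes, 55.9% were called under the first and 65.7% under the second. MET changed 0 of the 27, and 0 had an unadjusted limma p under 0.05. The MGLL samples of MET (3.27 to 3.73 TPM) nevertheless lay below those of VEH (3.81 to 4.21 TPM), with adjusted p = 0.956 in limma. MET and VEH samples did not overlap in 2.81% of all tested genes. Between CJ28 and MET 19 of the 27 differed, 7 higher and 12 lower in CJ28, a share of 70.4% beside 55.5% of all tested genes. On nuclear protein-coding TPM 11 were higher and 10 lower, with 47.6% of these calls lower beside 38.4% of the calls over all tested genes.

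Partners of LIPE and PNPLA2 in lipolysis fell in CJ28. ABHD5, the coactivator of the PNPLA2 lipase, had 16.32, 16.49, 16.04 and 16.36 TPM in VEH and 12.24, 12.68, 13.04 and 11.06 in CJ28 (log2 fold change -0.41, adjusted p = 3.51e-05 in limma). MGLL, the monoglyceride lipase that acts after LIPE, went from 3.95 ± 0.186 to 1.82 ± 0.442 TPM (log2 fold change -1.10, adjusted p = 7.68e-06 in limma). Both stayed lower under each scaling, at -0.21 for ABHD5 and -0.91 for MGLL on nuclear protein-coding TPM. G0S2, another inhibitor of the PNPLA2 lipase, was listed at 0 in 10 of the 12 samples and did not exceed 0.04 TPM in the others. Of the other sterol ester hydrolases, NCEH1 rose from 5.33 ± 0.417 TPM to 6.38 ± 0.257 (log2 fold change 0.26, adjusted p = 0.0114 in limma), unlike LIPE. Lysosomal acid lipase, LIPA, had 6.81 ± 0.311 TPM in VEH and 6.50 ± 0.492 in CJ28 (log2 fold change -0.07, adjusted p = 0.402 in limma), and its value turned positive, 0.08 and 0.14, under the other scalings.

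Among coat, assembly and droplet-bound proteins, the 3 largest decreases in CJ28 by the naming rule were those of METTL7B, CIDEB and METTL7A. METTL7B fell from 3.86 ± 0.241 to 1.10 ± 0.199 TPM (log2 fold change -1.73) and METTL7A from 16.8 ± 0.318 to 7.27 ± 0.272 TPM (log2 fold change -1.20). The methyltransferase-like products of these 2 genes are found on droplets. CIDEB, of the family that promotes droplet fusion, fell from 6.90 ± 0.689 to 2.82 ± 0.429 TPM (log2 fold change -1.27). The largest adjusted p of the 3 was 1.03e-06 in limma, and on nuclear protein-coding TPM their log2 fold changes were -1.54, -0.99 and -1.07 for METTL7B, METTL7A and CIDEB. LDAF1, the assembly partner of seipin that the table lists as TMEM159, had 0.915 ± 0.252 TPM in VEH and 1.38 ± 0.253 in CJ28 (log2 fold change 0.56, adjusted p = 0.0512 in limma). Its groups overlapped, with VEH up to 1.19 TPM and CJ28 down to 1.11 TPM. It passed after median-of-ratios scaling (log2 fold change 0.70, adjusted p = 0.0196 in limma), under which 55.9% of all tested genes were called. LDAF1 also passed on nuclear protein-coding TPM (log2 fold change 0.75, adjusted p = 0.00649 in limma), where 65.7% were called. Against MET it passed as deposited (log2 fold change 0.68, adjusted p = 0.0232 in limma), as did 55.5% of all tested genes, with overlapping groups.

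The 3 largest increases by the same rule were those of GPAT3, AUP1 and NCEH1. GPAT3, which starts glycerolipid synthesis, had 2.28, 3.04, 2.39 and 2.44 TPM in VEH and 11.35, 10.77, 10.37 and 10.52 TPM in CJ28 (log2 fold change 2.05, standard error 0.091, adjusted p = 1.61e-09 in limma). This was the only rise among the 6 tested genes of glycerolipid synthesis, 3 of which fell (GPAT4, LPIN1 and AGPAT2, named after their values were seen), although AGPAT2 did not pass on nuclear protein-coding TPM (log2 fold change -0.13, adjusted p = 0.0968 in limma). AUP1, a droplet protein that recruits the ubiquitin machinery, rose from 29.5 ± 1.94 to 37.4 ± 1.74 TPM (log2 fold change 0.34, adjusted p = 6.63e-05 in limma). A pair of droplet-bound dehydrogenases, which the rule did not name and which were chosen after their values were seen, went opposite ways. HSD17B13 rose from 0.435 ± 0.094 to 1.05 ± 0.0741 TPM, while HSD17B11 fell from 32.1 ± 0.686 to 18.3 ± 1.01 TPM (adjusted p = 6.02e-05 and 2.9e-08 in limma). Against MET, with the CJ28 samples shared, the rule named METTL7B, CIDEB, METTL7A, GPAT3, AUP1 and NCEH1 too, with log2 fold changes of -1.66, -1.22, -1.12, 1.88, 0.32 and 0.28.

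**Figure D4:**
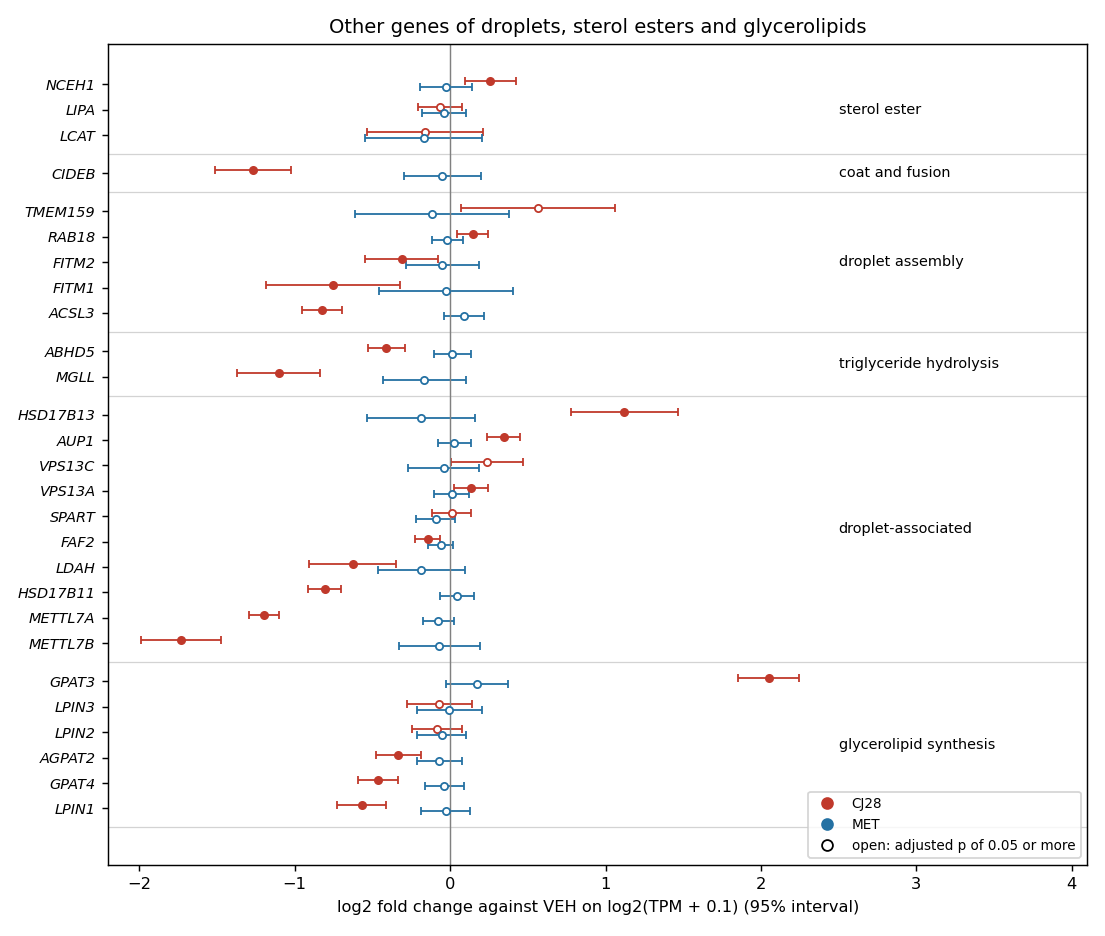
Log2 fold changes against VEH on log2(TPM + 0.1), with 95% intervals (horizontal axis), of the 27 other tested genes grouped by role, for CJ28 (red) and MET (blue). Filled points passed an adjusted p of 0.05, which 20 CJ28 points and 0 MET points did, with GPAT3 farthest to the right at 2.05 and METTL7B farthest to the left at -1.73.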

How the data were processed

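The deposited values are TPM for each gene and sample. The authors trimmed adaptors with Cutadapt (version 2.8), mapped reads to GRCh38 with STAR (version 2.7.10b) and quantified genes with RSEM (version 1.3.3), after ribosomal RNA depletion and stranded library preparation. Since TPM holds neither reads nor depth, the DESeq2 comparison of the study was replaced by limma (version 3.58.1 in R version 4.3.3, lmFit and eBayes with trend) on log2(TPM + 0.1), with all 12 samples in 1 fit without covariates. Tested were the 16815 genes that reached 0.5 TPM in 4 or more samples. P-values were two-sided with Benjamini-Hochberg adjustment over all tested genes, and fold changes on this scale are understated for low genes. Exact permutation tests and ratios were computed in Python (version 3.11.15) with numpy (version 2.4.6) and pandas (version 2.3.3), with plots from matplotlib (version 3.10.9). The fit was tested on simulated data.

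The genes, lists, motifs and tests were chosen with earlier results of these data known. Named are the 10 genes, their direct paralogs and partners, genes overlapping them, and per comparison the other listed genes that rose or fell most, 3 each way, if the adjusted p was under 0.05, group samples did not overlap and the mean was 1 TPM or more. LDAF1 was matched by its gene ID. Alternatives were pseudocounts of 1 and 0.01, all genes above 0 TPM, a mean of 1 TPM or more, 2 other scalings, fits without the group not compared, a block by replicate number, sums with overlapping genes, and each sample left out. No 2 samples had identical values (0 pairs).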

Additional observations from a re-analysis of the deposited data

Results flagged for a closer look

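Of 53 groups of 4 samples checked over 19 named genes, 8 held a sample set apart from the other 3 by a gap above Dixon's 95% critical value, which chance gives in about 1 in 20 groups. PLIN3 in VEH replicate 3 (22.03 TPM, the others 18.25 to 18.65) was high and BSCL2 in the same library (11.85 TPM, the others 13.81 to 14.00) was low. In CJ28 replicate 4, DGAT2 was low (0.56 TPM, the others 0.88 to 0.92) and MGLL was high (2.47 TPM, the others 1.52 to 1.68). PLIN4 was low in VEH replicate 1 (0.09 TPM, the others 0.14 to 0.15) and was listed at 0.08 TPM in CJ28 replicate 3 and 0.07 in the other 3, a step of the last decimal. G0S2 was above 0 only in CJ28 replicate 1 (0.03 TPM) and MET replicate 2 (0.04 TPM). Where the other 3 values are equal, as for G0S2 and for PLIN4 in CJ28, any differing sample is flagged. The rate of 1 in 20 does not apply to such groups.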

How the results depend on the processing

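LIPE and PLIN3 kept their direction and an adjusted p under 0.05 in limma in CJ28 against VEH and against MET under every alternative run, LIPE from -0.94 to -0.66 and PLIN3 from -0.67 to -0.43 against VEH on the log2 scale. Calls of SOAT1 and BSCL2 changed with scaling as given above. Near 0 and never called, DGAT2 in CJ28 against VEH turned to 0.00295 with a pseudocount of 1, to 0.13 and 0.18 with the median-of-ratios and nuclear protein-coding scalings, and to between 0.03 and 0.15 without CJ28 replicate 4 or VEH replicates 3 or 4 (range over left-out samples -0.0704 to 0.15). For MET against VEH, the 2 scalings turned SOAT1 to 0.020 and 0.00318 and PLIN3 to 0.026 and 0.00929. Leaving out single samples there gave ranges of -0.0249 to 0.00565 for SOAT1, -0.0365 to 0.15 for DGAT1, -0.0223 to 0.17 for PNPLA2 and -0.0401 to 0.0583 for PLIN3. For CJ28 against MET it gave -0.10 to 0.0922 for DGAT1 and -0.0342 to 0.10 for HILPDA. The cause was not tested. The number of all genes called in MET against VEH was 0 with pseudocounts of 1 and 0.01 and with a mean of 1 TPM or more, 5 with all genes above 0 TPM, and 0 to 2 without single samples. The numbers called among the 8 genes stayed at 3 to 4 for CJ28 and 0 for MET against VEH. With the filter at a mean of 1 TPM DGAT2 was not tested. Equal replicate numbers showed correlations of deviations between -0.124 and 0.0394, and of 8 samples a comparison 2 (CJ28 and VEH), 1 (MET and VEH) and 0 (CJ28 and MET) correlated best with their own number, so the numbers were not taken to pair samples. With the replicate block, 4 of the 8 genes passed in CJ28 against VEH and 4 against MET, PNPLA2 being the added gene (adjusted p = 0.00957 and 0.003 in limma), and 0 in MET against VEH. TPM does not show how many reads lie behind PLIN2 and PLIN4, the lowest of the 10 genes.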
